A study of Helianthus annuus with 2 samples.

Results

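The regions described here are 28 DAA intervals of the histone mark H3K4me3 that each merge several 13 DAA intervals in developing sunflower seeds. They were chosen by the positions in both peak lists: an interval of the list labelled 28 DAA on 1 of the 17 chromosomes was a member when it overlapped, by at least 1 bp, 2 or more intervals of the list labelled 13 DAA. Of the 122415 intervals of the list labelled 28 DAA on the chromosomes, 3049 were members (2.49%, 95% Wilson interval 2.40 to 2.58%). Another 38079 overlapped 1 interval of the list labelled 13 DAA, and 81287 overlapped none. The members overlapped 6394 of the 162824 chromosomal intervals of the list labelled 13 DAA (3.93%). When both lists were limited to q-values up to 1e-10, the rule left 923 members.

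ChIP-Seq of H3K4me3 was performed on developing seeds of the fixed high-oleic sunflower (Helianthus annuus) mutant line CAS-9, harvested at 28 days after anthesis (DAA), a late stage of fatty acid synthesis, and at 13 DAA, an early one. Both stages share the line, the tissue, the antibody and the growth chamber conditions, and no treatment is named. There was 1 library and 1 peak list per stage, so there was no spread between replicates, no test between stages was made, and every difference below is one between 2 libraries. A seed holds embryo, endosperm and seed coat, so more of a mark per cell and more cells with the mark cannot be told apart. The peak numbers that the study's text gives for the stages are those of the lists with the stage labels exchanged, whereas the fold enrichments it gives for the gene VIV1 are found in the lists as labelled. Of its cross-correlation metrics of enrichment, the normalized one was higher at 28 DAA, the list with more fragments at its summits, and the relative one was higher at 13 DAA. In the following, a value at 28 DAA or 13 DAA is that of the list carrying this label.

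H3K4me3, the trimethylation of lysine 4 on the tail of histone H3, is deposited by SET-domain methyltransferases and in plants usually marks the nucleosomes around and just downstream of the start of transcribed genes. A ChIP-Seq peak of the mark therefore usually spans several neighbouring nucleosomes, and its width follows how far the marked stretch reaches. Whether a marked stretch is written in a peak list as 1 interval or as several depends in part on whether the signal between its summits stays above the caller's limit. No gene models of this version of the XRQ genome were used, so the members are named by their position in it, counted from 1. Because no genome of that version was used, no sequence is shown.

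Each list gives, for every interval, its ends, its summit, the fold enrichment at the summit over the local background, and the p-value and q-value as −log10. The number of ChIP fragments piled up at the summit was worked out from its fold enrichment together with its p-value, and a whole number was found for 100% of the intervals in both lists. The genome-wide background was 2.30 fragments at a summit at 28 DAA (143 per 10 kb) and 2.10 at 13 DAA (157 per 10 kb), so the lists had similar backgrounds. Intervals of a fragment number are 95% Poisson intervals and those of a share 95% Wilson intervals, and both cover counting error only. The 41 intervals that met the same rule outside the chromosomes are given separately.

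The member traced to VIV1 shows what a merging interval looks like. VIV1 is the sunflower homolog of ABI3, a B3-domain transcription factor that controls seed maturation in Arabidopsis. Its interval was found by its fold enrichments, since gene models were not used here, and its distance to the gene was not checked. The 28 DAA interval, chr15:14963188-14964943, was 1756 bp wide with 213 fragments at the summit (185 to 244). Within it lay 2 complete 13 DAA intervals, 870 bp with 56 fragments (42.3 to 72.7) and 491 bp with 62 fragments (47.5 to 79.5), separated by a gap of 91 bp. Together they covered 77.5% of the 28 DAA interval. The Poisson intervals of these 13 DAA summits overlapped each other, and the 28 DAA summit lay in the wider and nominally weaker of the 2. Among the 3049 members, the VIV1 interval stood at percentile 99.8 by fragments, 95.5 by width and 92.2 by the share covered, but at percentile 16.7 by fold enrichment. Its local background was 2402 fragments per 10 kb at 28 DAA, against 669 and 664 around the 13 DAA summits.

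**Figure D1:**
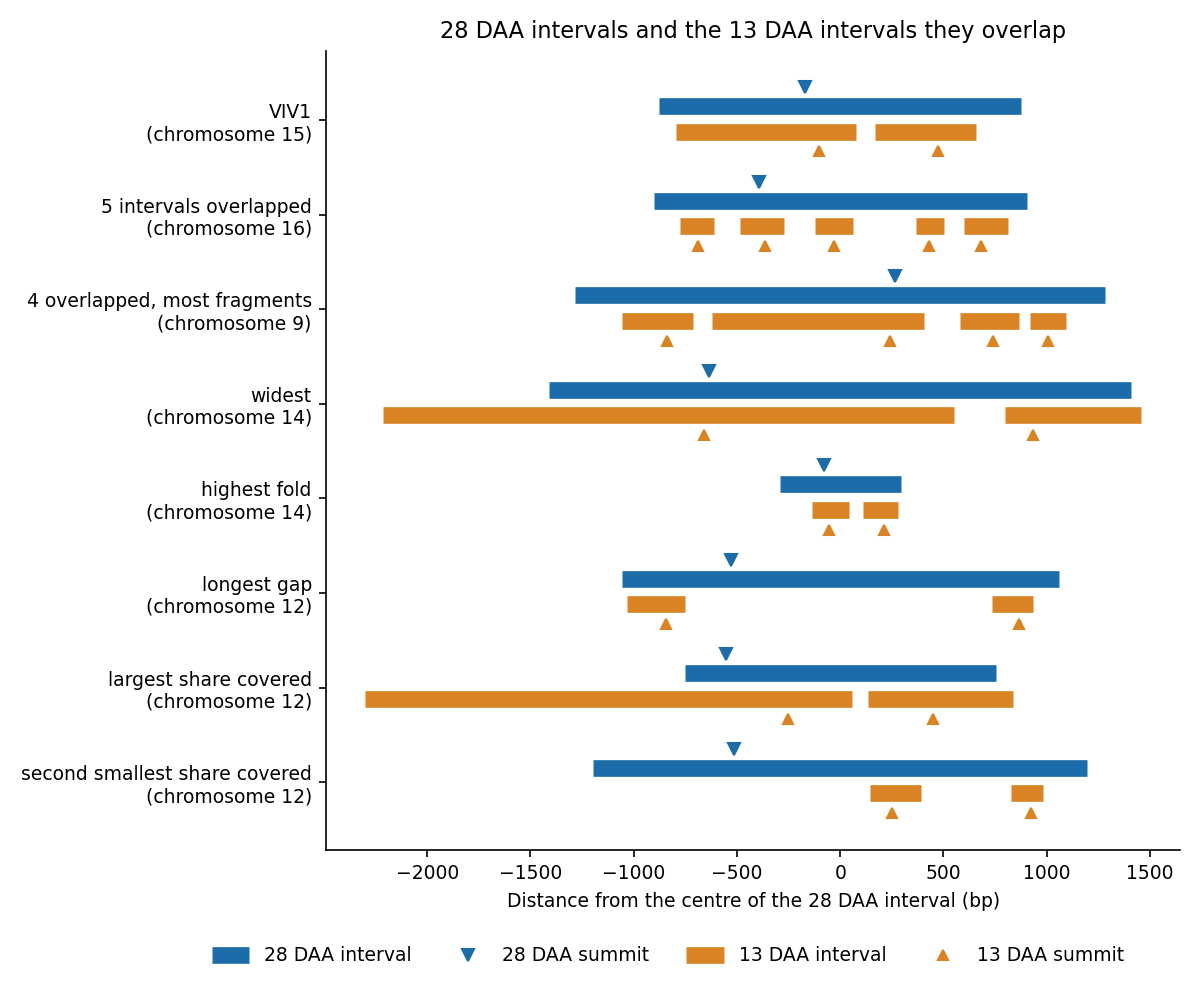
Positions of 8 merging intervals, drawn to scale as the distance in bp from the centre of the 28 DAA interval, with the 28 DAA interval (blue) above the 13 DAA intervals it overlaps (orange) and triangles at the summits. In the widest member and in that with the largest share covered the 13 DAA intervals reach past the edges of the 28 DAA interval, while in the other 6 they lie inside it.

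Most members merged the smallest number of peaks that the rule allows. 2 intervals of 13 DAA were overlapped by 2770 members, 3 by 258, 4 by 20, and 5 by 1 member. Width went up with that number, with a median of 972 bp for 2, 1372.5 bp for 3 and 1877 bp for 4 overlapped intervals. The median number of fragments at the 28 DAA summit was 134, 147 and 168.5 in the same order, while the median fold enrichment was 7.84, 7.02 and 6.32. A wider interval has more room for 13 DAA intervals, so this order is a description of the members and not a separate result.

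The member with 5 overlapped intervals, chr16:59373101-59374908, was 1808 bp wide and had 154 fragments at its summit (131 to 180). Its 13 DAA intervals were 161, 214, 184, 134 and 213 bp wide, had 28, 26, 34, 22 and 21 fragments, and were separated by gaps of 129, 149, 304 and 99 bp. No pair of these 13 DAA summits had Poisson intervals that lay apart. The 28 DAA summit fell in the second of them, and 50.1% of the 28 DAA interval was covered at 13 DAA.

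The widest members with 4 overlapped intervals differed in how full they were. At chr5:168711088-168713860, 2773 bp wide, the 13 DAA intervals covered 32.9%, and the longest gap was 579 bp. At chr9:143816072-143818641, 2570 bp wide, they covered 71.4%, and the longest gap was 177 bp. The chromosome 9 member had more fragments at its summit than any other, 241 (212 to 273), over a local background of 5392 per 10 kb, and hence a fold enrichment of only 2.76. Its 4 summits at 13 DAA had 67, 95, 79 and 66 fragments over backgrounds of 1943 to 1958 per 10 kb, so the region was high in both lists. Further members with 4 intervals were chr8:12263501-12265808 (147 fragments, 66.6% covered) and chr10:166874729-166876920 (201 fragments, 70.7% covered).

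As a description of what the rule picked, merging intervals were wide and deep for their list. Their median width was 1006 bp (quartiles 777 and 1276 bp, range 161 to 2820 bp), against 377 bp for intervals overlapping 1 and 250 bp for intervals overlapping none. They had a median of 136 fragments at the summit (quartiles 97 and 162), against 59 and 39 in those groups. The median width of the members corresponds to percentile 96.6 of all chromosomal 28 DAA intervals, the median fragment number to percentile 93.3, and the median fold enrichment, 7.72, only to percentile 71.9. The local background around them was high as well, with a median of 951 fragments per 10 kb, against 498 for those overlapping 1 and 350 for those overlapping none. No input control is named, so this background may count ChIP fragments of the interval itself and of marked neighbours. Whether it is a trait apart from their depth was not tested. With 2.49% of the intervals, the members held 6.87% of the 45.8 Mb covered at 28 DAA on the chromosomes.

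The share of 28 DAA intervals that merged 13 DAA intervals depended on width. It was 0.150% from 161 to 299 bp, 2.45% from 500 to 699 bp, 20.3% from 900 to 1099 bp, 46.8% from 1300 to 1499 bp and 68.8% from 2000 to 3999 bp, where the last class holds 64 intervals. Conversely, 50.8% of the members were wider than 1000 bp, against 5.15% of the intervals overlapping 1 and 0.935% of those overlapping none. Of all 4270 chromosomal 28 DAA intervals over 1000 bp, 36.3% were members. Width alone brings more overlaps, and how much of this order it accounts for was not tested.

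**Figure D2:**
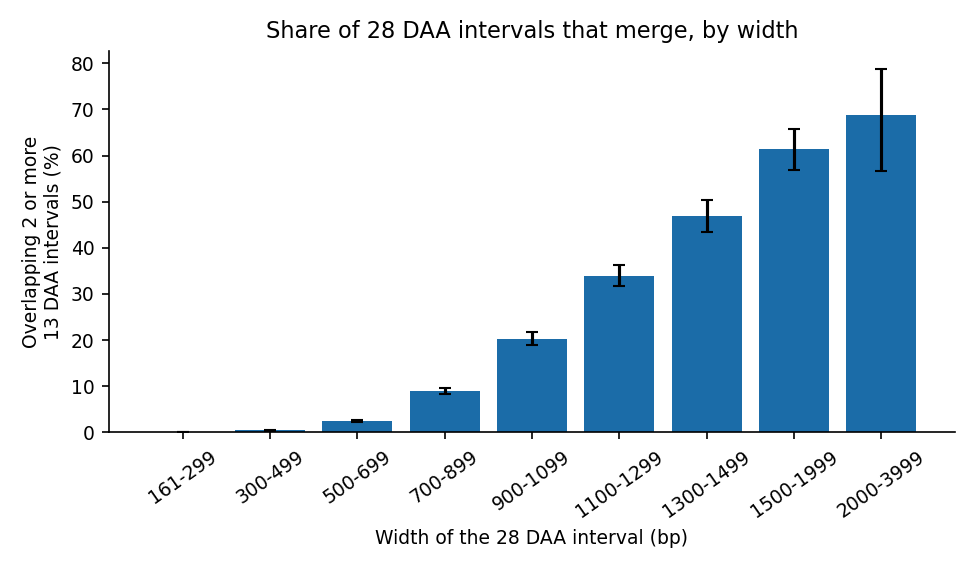
Share of 28 DAA intervals that overlap 2 or more 13 DAA intervals (y axis, %) by the width of the 28 DAA interval (x axis, bp), with 95% Wilson intervals as error bars. The share is 0.150% in the narrowest class and 68.8% in the widest.

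Within a width class, members and intervals overlapping 1 differed by class. From 900 to 1099 bp, the 645 members had a median of 141 fragments and a fold enrichment of 8.52, against 131 fragments and 8.44 for the 1766 intervals overlapping 1. The median share covered by 13 DAA intervals in this class was 53.7% in members and 34.8% in intervals overlapping 1, where the rule itself asks for the larger number of intervals. From 161 to 299 bp the order was the other way, with 68.5% in the 99 members and 77.8% in intervals overlapping 1. The summits of members had fewer fragments in the narrower classes. From 300 to 499 bp the 146 members had a median of 24 fragments, against 67 in intervals overlapping 1, and from 500 to 699 bp the 327 members had 85, against 107.

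The 13 DAA intervals inside the members were about as wide as the other overlapping ones, with slightly more fragments at the summit. Their median width was 230 bp (quartiles 167 and 335 bp), against 229 bp for the 37705 other overlapping 13 DAA intervals and 177 bp for the 118725 without overlap. Their summits had a median of 25 fragments, against 22 and 18, and a fold enrichment of 5.49, against 5.81 and 4.91. Their local background, 278 fragments per 10 kb, was above that of the other overlapping intervals (204) and of those without overlap (200). Of the 6399 pairs of a member and a 13 DAA interval, 88.8% had the 13 DAA interval fully inside the member, and 95.1% had its summit there. Only 64 of the 6394 intervals also touched another 28 DAA interval.

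Together, the 13 DAA intervals covered a median of 55.2% of the member (quartiles 43.6 and 67.0%, range 10.6 to 94.8%). A further 18.7% (median) lay in the gaps between them and 21.3% in the flanks outside the outermost ones. A member was 1.77 times as wide as its 13 DAA intervals added up (median, quartiles 1.44 and 2.25). The flanks and the gaps contributed similar shares of sequence called only at 28 DAA.

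The gaps that the members closed were short. Over all members there were 3350 gaps with a median of 155 bp (quartiles 91 and 253 bp). At most 100 bp were found in 28.8% of the gaps, at most 200 bp in 64.4% and at most 500 bp in 95.3%. The smallest gap was 50 bp, which is also the smallest in each list as a whole, so the distribution of gaps is cut off there. Neighbouring 13 DAA summits in a member lay 439.5 bp apart (median, quartiles 334 and 591 bp), and the spacing met most often was 300 to 399 bp, with 24.6% of the gaps. All gaps together amounted to 0.664 Mb.

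How often a gap was closed fell with its length where both neighbours overlapped a 28 DAA interval. Only a 28 DAA interval longer than the gap can close it, and the part of width in this order was not tested. Among neighbouring 13 DAA intervals that both overlapped a 28 DAA interval, the same 28 DAA interval held both in 94.1% of 1016 cases with a gap of 50 to 99 bp. This share was 80.9% for 150 to 199 bp, 57.2% for 200 to 299 bp, 33.4% for 300 to 399 bp, 18.4% for 400 to 599 bp and 0.737% for 1000 to 1999 bp. Of all neighbouring 13 DAA intervals with a gap of 50 to 99 bp, including those with no 28 DAA interval, 37.6% were joined at 28 DAA, and in 46.7% neither neighbour overlapped a 28 DAA interval.

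**Figure D3:**
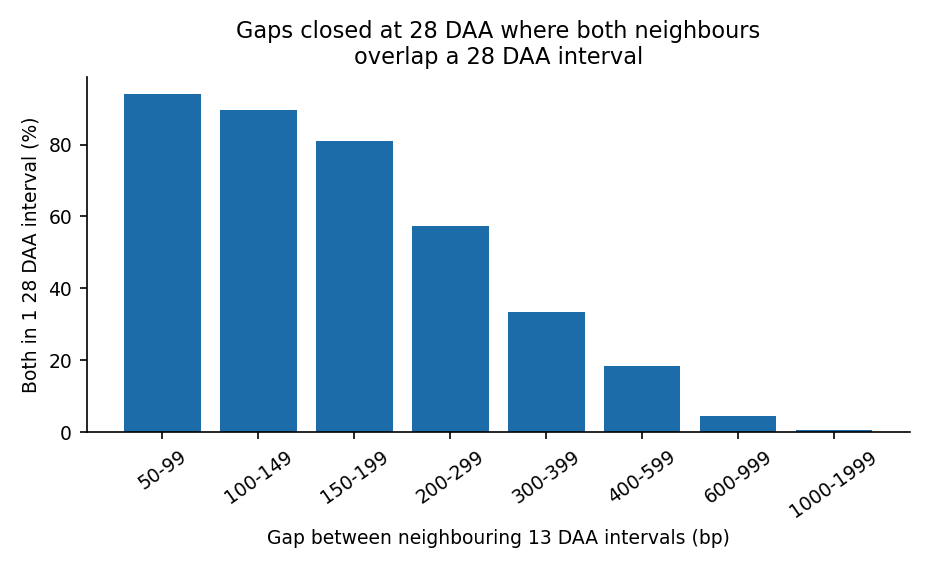
Share of neighbouring 13 DAA intervals held by the same 28 DAA interval (y axis, %) by the length of the gap between them (x axis, bp), among neighbours that both overlap a 28 DAA interval. The share is 94.1% for gaps of 50 to 99 bp and 0.737% for gaps of 1000 to 1999 bp.

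The longest gap of any member was found at chr12:101930122-101932238. There, 13 DAA intervals of 283 and 201 bp, with 32 (21.9 to 45.2) and 30 (20.2 to 42.8) fragments, sat near the ends of a 28 DAA interval of 2117 bp with 120 fragments (99.5 to 143), and the gap between them was 1483 bp. The 28 DAA summit lay in that gap, 314 bp from the nearest 13 DAA summit. At chr10:161982958-161984963 the gap was 1335 bp and the 28 DAA summit, with 168 fragments, lay in the nominally weaker 13 DAA interval. At chr17:115873605-115875542 the gap was 1208 bp, and the 28 DAA summit, with 152 fragments, lay 10 bp from the nominally stronger 13 DAA summit. In both of these members the Poisson intervals of the 13 DAA summits overlapped.

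The share covered ranged widely. The smallest was 10.6%, at chr3:92383335-92383522, a 28 DAA interval of only 188 bp with 15 fragments (8.40 to 24.7) that lay in a gap of 168 bp and touched the 13 DAA intervals on both sides by 4 and 16 bp. The next, at chr12:36299105-36301498, was of another kind. It was 2394 bp wide with 160 fragments (136 to 187), and its 13 DAA intervals covered 16.7%, with the 28 DAA summit 763 bp from the nearest 13 DAA summit and outside their span. The third smallest, chr4:94714402-94714741, had 16 fragments over 340 bp and again lay mostly in a gap. At the other end, chr12:161637327-161638832, chr13:1576639-1577628 and chr10:41916504-41917342 were covered to 94.8%, 93.8% and 93.2%. In these 3 members the 28 DAA summit had 81, 59 and 29 fragments, against 123, 67 and 43 at the strongest 13 DAA summit.

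The edge of the rule was narrow. At chr10:59204898-59205449, chr4:129816537-129816873 and chr13:161340516-161340677, the second 13 DAA interval was touched by 1 bp. Just outside the rule, a second 13 DAA interval began or ended right at the edge of chr12:96925951-96926253 (0 bp between them) and 1 bp away from chr4:122191847-122192439 and chr10:194168521-194168717. In 55 members (1.80%) the second overlap was under 20 bp, and 451 intervals overlapping 1 (1.18%) had a second 13 DAA interval within 100 bp of their edge.

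The 28 DAA summit mostly fell on a 13 DAA interval rather than between them. It lay inside one in 2786 members (91.4%, 90.3 to 92.3%). Over all overlapping 28 DAA intervals this share was 87.4%, and over those overlapping 1 it was 87.1%. Since the members were selected on having more 13 DAA intervals, the comparison with this background is not independent of the rule. The summit lay in the 13 DAA interval with the most fragments in 1898 members (62.2%), in a weaker one in 888 (29.1%), in a gap in 142 (4.66%) and outside their span in 121 (3.97%). Members with the summit in a gap were narrow, with a median of 536 bp, and had a median of 35.5 fragments.

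Which of the 13 DAA intervals held the summit could be read only where they differed beyond counting error. Of the 2770 members with 2 of them, the Poisson intervals of their summits lay apart in 113 (4.08%). In 112 of these the 28 DAA summit lay in a 13 DAA interval, and in 110 it was the stronger one (98.2%, 93.7 to 99.5%). Where the Poisson intervals overlapped, it was the nominally stronger one in 1638 of 2404 (68.1%, 66.2 to 70.0%). The stronger interval came first along the chromosome in 1410 of the 2770 (50.9%, 49.0 to 52.8%). Gene strands were not used, so this order cannot show a side relative to the direction of transcription.

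The summit sat off centre. Its distance from the nearer edge was a median of 26.8% of the width in members, against 38.0% in intervals overlapping 1, and it lay in the middle 50% of the interval in 55.6% of the members, against 85.1%. The rule places 2 or more 13 DAA intervals side by side in a member, and the summit mostly fell on one of them, so an off-centre summit is part of the description of the members and no separate result. From the strongest 13 DAA summit the 28 DAA summit lay 77 bp away (median, quartiles 23 and 356 bp). It was within 100 bp of the strongest in 54.4% of the members, against 76.3% of the intervals overlapping 1, which have 1 13 DAA summit to choose from.

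**Figure D4:**
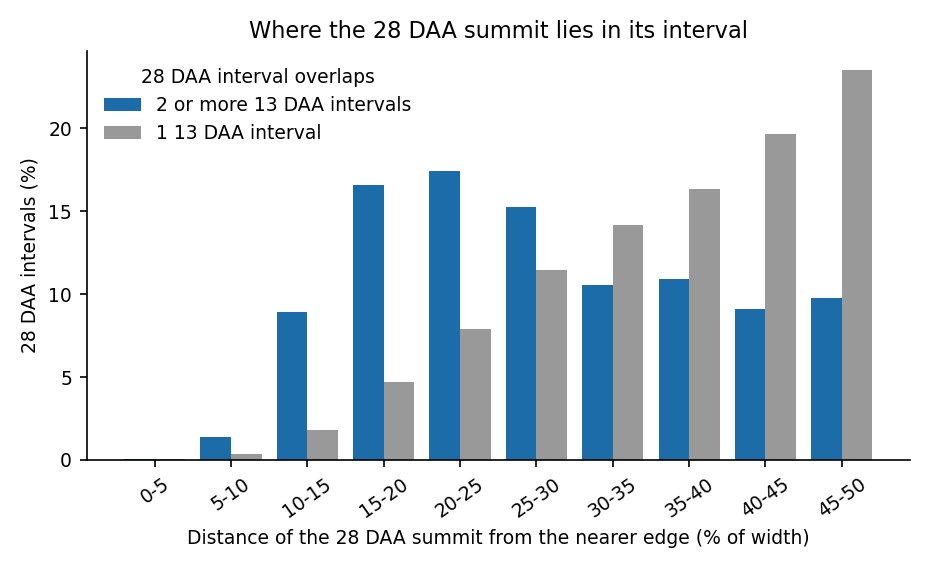
Distance of the 28 DAA summit from the nearer edge of its interval (x axis, % of the width) for intervals overlapping 2 or more (blue) and 1 (grey) 13 DAA intervals (y axis, % of the intervals in each group). Members are most frequent at 20 to 25% of the width (17.4%), intervals overlapping 1 at 45 to 50% (23.5%).

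The summits of the members had several times more fragments at 28 DAA than at 13 DAA. The median was 136 fragments at 28 DAA, against 29 (quartiles 23 and 38) in the strongest and 22 in the second strongest 13 DAA interval of the same member. Each number was divided by its list's genome-wide background, and the ratio of 28 DAA over the strongest 13 DAA interval was then 3.82 (median), against 2.43 in intervals overlapping 1. It was above 1 in 2820 members (92.5%), against 79.5% of all overlapping intervals. The rule used these calls, and it set 1 summit against the highest of several, so nothing further is read from the difference to the background.

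The fold enrichment differed far less between the lists than the fragments did. Its ratio of 28 DAA over the highest 13 DAA value in the member was 1.13 (median, quartiles 0.960 and 1.39). It was higher at 28 DAA in 2095 members (68.7%), against 60.2% of all overlapping intervals. Within classes of fragments at the 28 DAA summit this order was mostly reversed. Where the median was 161 fragments in both groups, the share was 73.7% in members and 81.7% in intervals overlapping 1. Where the median was 185 in both, the shares were 52.2% and 62.7%. Members had the higher share only at medians of 35 in both (49.7% and 45.8%) and of 88 and 86 (73.2% and 72.9%). Local background was also compared, each value over its genome-wide one. In members it was a median of 3.78 times as high at 28 DAA as around the strongest 13 DAA interval (quartiles 3.09 and 4.52). In intervals overlapping 1 the ratio was 2.74 (median, quartiles 1.05 and 3.87). The fold enrichment divides the summit by this local background, so the 2 measures are not independent. With no input control named, the local background may itself hold ChIP fragments of the member. Across members, the fragments at 28 DAA and at the strongest 13 DAA summit had a Spearman rho of 0.634 (n = 3049), against 0.333 across the 38079 intervals overlapping 1, and all points share the same 2 libraries.

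**Figure D5:**
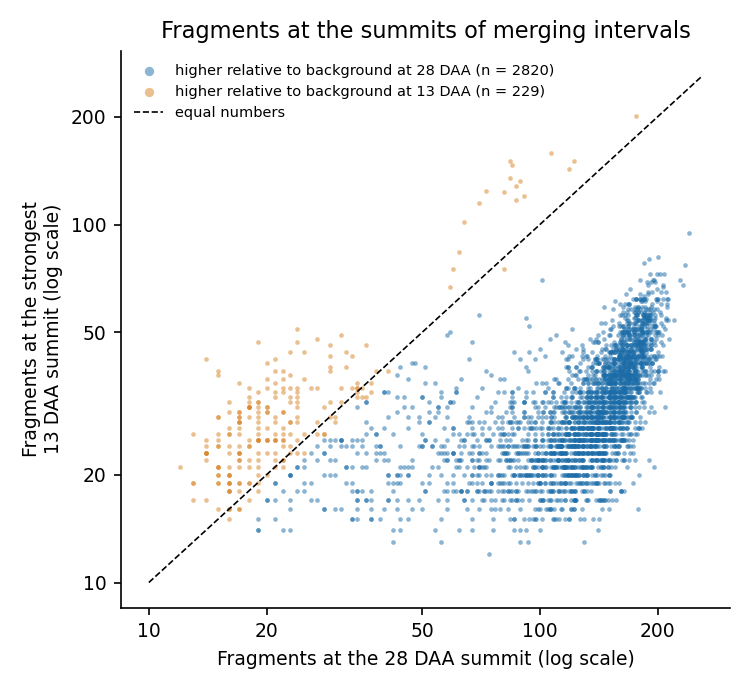
Fragments at the 28 DAA summit (x axis, log scale) and at the strongest 13 DAA summit (y axis, log scale) of each of the 3049 members, with equal numbers as a dashed line. The 2820 members whose fragments, relative to background, are more numerous at 28 DAA are blue and centre on 140 and 30 fragments, and the other 229 are orange and centre on 20 and 28.

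The 2820 and the 229 members on either side were different in shape, although the split uses the measured fragments and so describes the members only. The 2820 had a median width of 1040 bp, a fold enrichment of 7.92, 53.9% covered and a longest gap of 169 bp. The 229 had a median width of 355 bp, a fold enrichment of 4.82, 71.6% covered and a longest gap of 76 bp. In 93.4% of the 229, 13 DAA intervals reached past an edge of the 28 DAA interval, against 10.9% of the 2820. The 229 are thus mostly narrow, shallow 28 DAA intervals that lie largely on close 13 DAA intervals without fully enclosing them. The 2820 mostly enclose their 13 DAA intervals.

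The extremes lay far apart. At chr12:89616870-89617907 the 28 DAA summit had 178 fragments and the strongest 13 DAA summit 16, with fold enrichments of 7.15 and 5.16. The next, chr4:166919664-166920508 and chr13:84135901-84136760, had 141 against 14 and 130 against 13 fragments. In the other direction, chr5:188393664-188393897 had 14 fragments at 28 DAA, against 42 at 13 DAA, with fold enrichments of 3.55 and 6.89.

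The members with the highest fold enrichment were narrow for members and lay over a low background. The highest, 23.7, was at chr14:115087615-115088202, 588 bp wide, with 104 fragments (85.0 to 126) over 213 per 10 kb, against 13 DAA summits of 21 and 18 fragments with fold enrichments of 7.10 and 6.13. At chr3:144041333-144042049 it was 19.6 with 188 fragments (162 to 217), against 54 and 25 fragments at 13 DAA, and this member also held the highest 13 DAA fold enrichment of any, 17.2. At chr6:83703463-83704050 it was 18.3 with 101 fragments, against 20 and 15 at 13 DAA. In each of these 3 members the 28 DAA summit lay in the nominally stronger 13 DAA interval. On chromosomes 14 and 6 the Poisson intervals of the 13 DAA summits overlapped, and only on chromosome 3 did they lie apart.

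The members with the most fragments, after the one on chromosome 9, were chr5:32029793-32030921 and chr13:69897583-69898920. The chromosome 5 member had 235 fragments (206 to 267) and a fold enrichment of 7.54, against 77 and 40 fragments at 13 DAA. The chromosome 13 member had 232 fragments (203 to 264) and 10.1, against 68 and 27. In both, the Poisson intervals of the 13 DAA summits lay apart and the 28 DAA summit fell in the stronger, 11 and 16 bp from its summit.

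The widest member, chr14:3081823-3084642 with 2820 bp, belonged to the 229. Its 28 DAA summit had 87 fragments (69.7 to 107), against 117 (96.8 to 140) and 113 (93.1 to 136) at 13 DAA, where the intervals were 2766 and 660 bp wide and began before and ended behind the 28 DAA interval. Of the widest members the third, chr16:21489488-21492157 with 2670 bp, had 163 fragments at 28 DAA, against 38, 57 and 30 in its 3 intervals at 13 DAA, and a gap of 814 bp.

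For a position inside a gap to be called, the local background set the number of fragments needed. Taking the weakest p-value in each list as its limit and the backgrounds at the summits, a position in the gaps of the members needed a median of 35 fragments at 28 DAA (quartiles 27 and 42) and 14 at 13 DAA (12 and 16). Relative to the genome-wide background this was 15.2 and 6.67 times. The limits of the lists were close, 4.77 at 28 DAA and 4.71 at 13 DAA in −log10 p. The needed numbers thus restate the higher local background of the members at 28 DAA and are no separate result. The fragments inside the gaps themselves cannot be read from peak lists, and 13 DAA stretches shorter than the shortest interval of that list, 134 bp, would not appear as intervals.

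Members were spread over all chromosomes. Their number per Mb, with chromosome lengths approximated by the last interval end, had a median of 1.06 and ranged from 0.779 on chromosome 2 to 1.30 on chromosome 14. As a share of the 28 DAA intervals of a chromosome it ranged from 1.93% (1.62 to 2.29%) on chromosome 1 to 2.81% (2.47 to 3.19%) on chromosome 14. Within 10 Mb of a chromosome end lay 16.8% of the members, against 15.7% of all 28 DAA intervals. A member was found in 1801 of 3007 windows of 1 Mb, and the window with the most, 10 members among 121 intervals, was at 169 to 170 Mb of chromosome 14.

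Fewer members than other 28 DAA intervals had a close neighbour in their own list. Another 28 DAA interval lay within 1000 bp of 44.8% of the members (43.1 to 46.6%), against 49.1% (48.6 to 49.6%) of the intervals overlapping 1 and 55.8% of those overlapping none. The median distance to the nearest other 28 DAA interval was 2565 bp for members, against 1073 bp and 705 bp. Only 56 members (1.84%) had another member within 5000 bp, and these formed 28 pairs. The rule picks wide intervals, and the part of width in these distances was not tested.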

How the data were processed

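H3K4me3 ChIP-Seq peak lists of 28 and 13 DAA seeds, 1 library each, were analyzed. The authors filtered the reads (FASTX-Toolkit), aligned them to the XRQ genome (BWA-MEM), took out duplicates (Picard MarkDuplicates) and ran MACS2 on each stage. Pooling of immunoprecipitations and an input control are not named in these sources. In the deposited lists the score is 10 times the −log10 q-value, rounded down. The fold enrichment is the authors' ratio of the summit over the local background, and the p-value and q-value were deposited as −log10.

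Overlaps were computed with a minimum of 1 bp. Fragments at a summit were solved from the fold enrichment and the Poisson p-value, adding a pseudocount of 1 to both terms and allowing a tolerance of 0.001 in −log10 p, and the code was tested on simulated data. Depth was read as genome-wide background, which depends on the genome size given to MACS2. Backgrounds per 10 kb take the shortest intervals, 161 bp at 28 DAA and 134 bp at 13 DAA, as fragment lengths. With 1 library per stage no test was possible.

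Members, the rule for named peaks and the alternatives were chosen with earlier results of these data known. Named were VIV1, the 5 members with the most 13 DAA intervals, the 3 widest, those with the most fragments, the highest fold enrichment, the longest gap, the largest and smallest share covered, and those at the edge of the rule. The 3 highest and the lowest ratio of fragments were added after their values were seen. The 7 alternatives concern the overlap rule, q-value limits, equal list lengths, joined 13 DAA intervals and unplaced and organelle sequences. Gene models, promoters and motifs were not analyzed here. Computation used Python 3.11.15 with pandas 2.3.3, numpy 2.4.6 and scipy 1.17.1, and matplotlib 3.10.9 drew the figures.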

Additional observations from a re-analysis of the deposited data

Results flagged for a closer look

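Outside the 17 chromosomes, 41 intervals of the 28 DAA list also overlapped 2 or more 13 DAA intervals. They drew attention because the main comparisons leave these sequences out. Only the alternative that includes unplaced and organelle sequences uses them. Calls on plastid and mitochondrial sequences cannot be read as H3K4me3, which is a mark of histones. Against 2.49% on the chromosomes, members made up 3.54% (2.53 to 4.93%) of the intervals on unplaced sequences, 6.41% (2.77 to 14.1%) on the mitochondrion and 7.69% (2.65 to 20.3%) on the plastid (95% Wilson intervals). Unplaced sequences held 33 of them among 932 intervals, the mitochondrion 5 among 78 and the plastid 3 among 39. The median width was 856 bp on unplaced sequences, 662 bp on the mitochondrion and 473 bp on the plastid, with 76, 105 and 37 fragments at the summit in the same order. The median fold enrichment was 2.97, 2.41 and 4.37, against 7.72 in the members on the chromosomes.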

How the results depend on the processing

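With 9 results under 7 alternatives, 28 values stayed within their interval (for counts, within 1.5 times) and 35 moved. The median of 2 overlapped 13 DAA intervals is the smallest the rule allows and so says nothing about stability. Including unplaced and organelle sequences moved none of the 9 (3090 members). With both lists limited to q-values up to 1e-10, 923 members were left (0.991% of the 28 DAA intervals). Their medians were 1152 bp, 159 fragments, a gap of 163 bp and 60.1% covered, 98.0% had the 28 DAA summit in a 13 DAA interval, and 63.5% had the higher fold enrichment at 28 DAA. With a limit of 1e-05, members were 2.36% and the summit share 92.5%. With the same number of strongest intervals in both lists, members were 2.03%, with medians of 1037 bp, 142 fragments and 56.3% covered and a summit share of 93.4%. Joining 13 DAA intervals up to 100 bp apart first gave 1.81% members, with medians of 1087 bp, 141 fragments, a gap of 201 bp and 52.0% covered, and the higher fold enrichment at 28 DAA in 71.2%. When the 13 DAA summit had to lie in the 28 DAA interval, the values were 2.29%, 1042 bp, 140 fragments, 161.5 bp, 54.2%, a summit share of 93.3% and 72.2%. When at least 50% of the 13 DAA interval had to lie in it, they were 2.30%, 1041 bp, 140 fragments, 161 bp, 54.3%, 93.3% and 72.1%.

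No paired analysis was possible because each stage had 1 library. A single 13 DAA summit in a member, with a median of 25 fragments, is less precise than a 28 DAA summit with 136. The rule counts calls, so the number of members depends on the limit of each list.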

Other observations

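A small set of members stood apart in the plot of fragments, and its limits were chosen after the values were seen. Of the 71 members with more than 60 fragments at the strongest 13 DAA summit, 52 had the larger fragment number relative to background at 28 DAA and 19 the smaller. The 52 had medians of 190.5 fragments at 28 DAA, against 65 at 13 DAA, and a fold enrichment of 7.28 at 28 DAA. The 19 had medians of 84 fragments at 28 DAA, against 124 at 13 DAA, and a fold enrichment of 2.54 at 28 DAA, which was under 4 in 17 of them. In 18 of the 19 the local background at 28 DAA exceeded 1300 fragments per 10 kb, and the median was 1921 at 28 DAA, against 3513 around the strongest 13 DAA summit. In the 52 these backgrounds were 1624.5 at 28 DAA and 538 at 13 DAA.

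The 19 lay on 8 of the 17 chromosomes. Chromosome 12, with 182 of the 3049 members, held 8 of them, between 62904774 and 165907919. Chromosome 14, with 226 members, held 5, which lay between 329122 and 3084642, close to the start of that chromosome, and include the widest member. The other 6 lay on chromosomes 2, 6, 8, 11, 13 and 17, 1 on each.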
